A study of Zea mays with 4 samples.

Results

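Maize endosperm, the tissue of the kernel that stores starch and protein, was measured by RNA sequencing in 4 libraries. The loci described here form the tier below its most abundant transcripts. Their members were selected on the deposited values themselves: a locus belonged when its mean FPKM over the 4 libraries was at least 100 and below 500 and it lay on chromosomes 1 to 10 or a scaffold. FPKM is a fragment count scaled to transcript length and to the mapped fragments of the library. The rule found 736 of the 29642 loci listed, 2.48% of all and 4.16% of the 17682 loci whose mean reached 1 FPKM, which are called the background loci below. No mitochondrial or plastid locus had a mean in that range.

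The groups were endosperm of the rea1 mutant and of wild type, both taken 15 days after pollination, each as total RNA and as polysome-bound RNA (polysomal RNA below), with 1 library per group. Polysomal RNA was what pelleted through a sucrose cushion, and total RNA came from the supernatant of the same amount of powdered tissue. The labels name the source as kernel and the tissue as endosperm, and do not state the gene mutated in rea1, its allele or the background line. The design text speaks of triplicates, but each file holds 1 value per locus. With 1 library per group, no difference below has a replicate check or a test. Differences are given by size, as log2 ratios of FPKM + 1, and "higher" and "lower" refer to these libraries.

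As background, cereal endosperm in the filling phase devotes a large share of its messenger RNA to a small number of storage-protein genes, and starch synthesis runs alongside. Below them lie transcripts of the general machinery of the cell, and in plant tissues at large the transcripts of ribosomal proteins, translation factors and enzymes of primary metabolism are common at such levels. An mRNA that carries several ribosomes sediments as a polysome, so its presence in the pellet is read as a sign of ongoing translation. Rea1, or midasin, is in yeast an AAA-type ATPase that strips assembly factors from precursors of the large ribosomal subunit. The loci carry no gene names, and the gene table at hand is of another genome build, so no locus is assigned a product. The labelled tissue was therefore not checked against marker genes, and no value is given for the mutated gene. Loci are given by position on B73 RefGen_v3.

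The loci just inside and just outside the limits show what the rule separated. At the lower limit, the locus on chromosome 4, 136667 to 140201, had a mean of 100.2 FPKM and that on chromosome 6, 123262870 to 123266244, had 100.3 FPKM. The nearest below it were chromosome 4, 45292820 to 45296505, at 99.9 FPKM and chromosome 1, 201522268 to 201525873, at 99.9 FPKM. At the upper limit, chromosome 8, 39127853 to 39133971, had 495 FPKM and chromosome 6, 160533097 to 160533295, had 491 FPKM. Just above it lay chromosome 7, 18954749 to 18955697, at 502.9 FPKM and chromosome 4, 232945222 to 232947736, at 502.9 FPKM. Neighbours across a limit thus differed by little, and a mean can be made up in different ways: the chromosome 7 locus outside the limit was at 277 FPKM in rea1 total RNA and 1712 in wild-type total RNA, but at 6.90 and 15.5 FPKM in polysomal RNA of rea1 and wild type.

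As deposited, the median over members was highest in rea1 total RNA and lowest in wild-type total RNA. The median member had 244 FPKM in rea1 total RNA and 122 FPKM in wild-type total RNA, and 170 FPKM in rea1 polysomal RNA against 133 FPKM in wild-type polysomal RNA. Scaled by the median of ratios, so that the typical locus is level across libraries, the medians were 167 in rea1 total and 139 in wild-type total RNA, and 173 in rea1 polysomal and 163 in wild-type polysomal RNA. The gap in total RNA was then smaller and rea1 polysomal RNA stood highest. As deposited, the lowest and highest values were 3.54 and 1253 FPKM in rea1 total, 3.69 and 1268 for wild-type total, 0 and 778 in rea1 polysomal and 0 and 736 in wild-type polysomal RNA. By deposited values, 530 of the 736 members had their highest value in rea1 total RNA, 128 in rea1 polysomal, 49 in wild-type total and 29 in wild-type polysomal RNA. The lowest value was in wild-type total RNA for 422 members and in wild-type polysomal RNA for 196. The commonest combination, in 331 members, had rea1 total RNA at the top and wild-type total RNA at the bottom. These counts were not taken for the background loci or with median-of-ratios scaling. As deposited, rea1 total RNA stood above wild-type total RNA in 87.8% of the members and 84.8% of the background loci. Much of the pattern is therefore shared by all loci. With median-of-ratios scaling the shares were 63.9% and 50%.

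**Figure D1:**
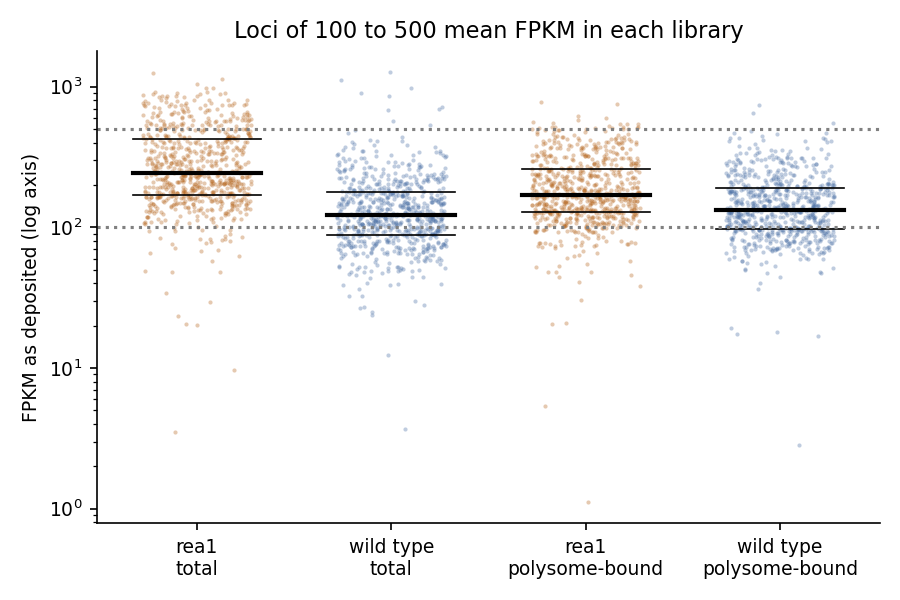
FPKM of the 736 loci in each of the 4 libraries, on a log axis. Each point is 1 locus, the thick line is the median and thin lines are the quartiles over all members. The 3 values listed at 0 are not drawn, and dotted lines mark 100 and 500 FPKM. As deposited, the rea1 total library has the highest median, at 244 FPKM, and wild-type total the lowest, at 122 FPKM, whereas with median-of-ratios scaling rea1 polysomal RNA is highest, at 173.

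The members therefore took up unequal parts of the libraries. They held 26.7% of the summed FPKM in rea1 total RNA and 11.3% in wild-type total RNA, and 18.0% in rea1 polysomal RNA against 12.8% in wild-type polysomal RNA. Loci with a mean of 500 FPKM or more held 36.1% of rea1 total and 69.2% of wild-type total RNA, and 54.4% and 66.4% of polysomal RNA of rea1 and wild type. FPKM values divide a library among its loci, so a larger share for one set leaves less for the other by construction. Of the FPKM outside the loci of 500 or more, the members held 41.9% in rea1 total and 36.7% in wild-type total RNA, and 39.5% and 38.0% in polysomal RNA of rea1 and wild type. The order of the libraries was the same after that removal, with smaller gaps. In bulk tissue, more cells of a type and more RNA per cell cannot be told apart.

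A mean in the range did not place a locus there in every library. All 4 values lay between 100 and 500 FPKM in 270 members (36.7%), and none did in 3. In rea1 total RNA 132 members were at 500 FPKM or more and 33 below 100, while in wild-type total RNA 10 were at 500 or more and 252 below 100. In polysomal RNA, 23 were at 500 or more and 77 below 100 in rea1, against 3 and 214 in wild type. The highest value was on median 2.64 times the lowest. It was less than 1.5 times the lowest in 68 members and at least 10 times the lowest, or set against a value listed at 0, in 25. The most even was chromosome 1, 177072656 to 177077812, at 177 FPKM in rea1 total, 182 for wild-type total, 167 for rea1 polysomal and 170 in wild-type polysomal RNA. The next, chromosome 6, 139464390 to 139470075, was at 272, 271, 243 and 236 FPKM in the same order.

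The first comparison asks how total RNA of rea1 differs from that of wild type. Higher by 2-fold or more in rea1 were 392 of the 736 members (53.3%), against 26.3% of the background loci. Lower by 2-fold or more were 26 members (3.53%), against 1.91% of the background loci. The median log2 ratio was 1.10, with quartiles of 0.47 and 1.80, and the median of the background loci was 0.62. By 4-fold or more, 118 members (16.0%) were higher and 10 (1.36%) lower, against 3.36% and 0.452% of the background loci. With median-of-ratios scaling these were 19 (2.58%) and 18 (2.45%), against 0.916% and 0.956%, so higher and lower loci were then about equal in number. The ratios of all loci were shifted the same way. Where median-of-ratios scaling brought the background median to 0.00, 198 members (26.9%) were higher and 64 (8.70%) lower, against 6.74% and 5.65% of the background loci. The median of the members was then 0.37, and 470 of them (63.9%) lay above 0. The members stood above the background median under both scalings, and their ratios were also more spread, with an interquartile range of 1.33 against 0.79 for the background loci. The members' own ratio enters the mean that chose them, in part. When the class was drawn from the mean of the 2 polysome libraries alone, it held 685 loci, of which 359 were higher by 2-fold or more and 21 lower in total RNA, with a median of 1.09.

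**Figure D2:**
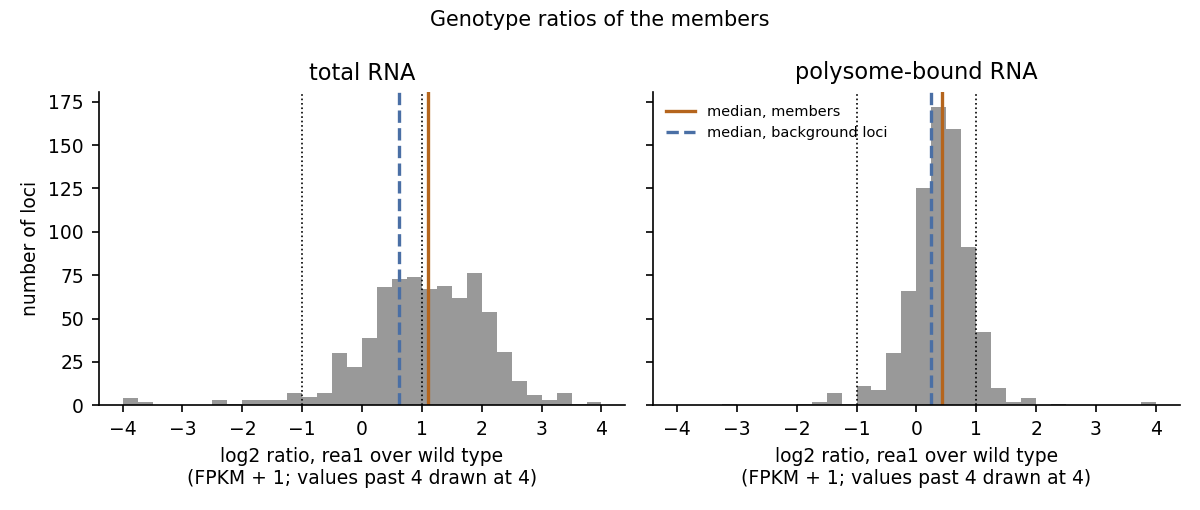
Number of loci by log2 genotype ratio (rea1 over wild type) in total RNA (left) and polysomal RNA (right), for the 736 loci. Ratios beyond 4 on either side are drawn in the outer bars. Dotted lines mark a 2-fold difference, the solid line the median of the members (1.10 and 0.43) and the dashed line the median of the background loci (0.62 and 0.24). Between the quartiles the members span 0.47 to 1.80 in total RNA and 0.13 to 0.69 in polysomal RNA.

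The difference in total RNA was larger in the upper bands of level. The median log2 ratio was 0.95 for the 279 members of 100 to 150 mean FPKM, 0.85 for 160 of 150 to 200, 1.40 for 167 of 200 to 300 and 1.42 for 130 of 300 to 500. The share higher by 2-fold or more was 46.6%, 42.5%, 62.3% and 69.2% over the same bands. Outside the range the median was 0.69 for 5467 loci of 10 to 50 mean FPKM, 0.86 for 992 loci of 50 to 100 and 1.42 for 71 loci of 500 to 1000. The share higher by 2-fold or more was 28.6%, 40.1% and 81.7% in these. With median-of-ratios scaling the medians of the member bands were 0.22, 0.11, 0.66 and 0.69 from low to high. Those of the bands outside were -0.02, 0.13 and 0.68. The mean that sets these bands holds the values of the ratio itself. With level taken from the mean of the 2 polysome libraries, which the ratio does not use, the medians were 0.97, 0.85, 1.30 and 1.37 from the lowest to the highest band, and 1.23 for 48 loci of 500 to 1000. That banding was chosen after the data were seen. By median ratio over all 4 libraries the 2 lower bands of members lay near the loci of 50 to 100 mean FPKM and the 2 upper bands near those of 500 to 1000.

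The highest genotype ratios belonged to 2 loci that were low in both wild-type libraries. Chromosome 3, 201981099 to 201981984, was at 1253 FPKM in rea1 total RNA and 3.69 in wild-type total RNA, a log2 ratio of 8.06, and at 307 and 2.84 FPKM in polysomal RNA of rea1 and wild type, a ratio of 6.33. Chromosome 7, 157638031 to 157641018, was at 1135 FPKM in rea1 total and 23.8 in wild-type total RNA, and at 550 and 19.1 FPKM in polysomal RNA of rea1 and wild type. Its log2 ratios were 5.52 and 4.77. In both loci each rea1 library stood far above each wild-type library, and both led the members in either RNA fraction.

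The lowest ratios in total RNA belonged to 2 loci of unlike profile. Chromosome 8, 132250530 to 132252119, was at 3.54 FPKM in rea1 total and 219 in wild-type total RNA, and at 20.7 and 190 FPKM in polysomal RNA of rea1 and wild type, with log2 ratios of -5.60 and -3.14. Chromosome 1, 162047479 to 162097052, spans 49574 bp and was at 9.63 FPKM in rea1 total and 415 in wild-type total RNA, and at 5.34 and 17.6 FPKM in polysomal RNA of rea1 and wild type. The first was high in both wild-type libraries, the second in wild-type total RNA alone.

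Several of the lower loci lay beside very abundant ones. Within 50 kb of a locus with a mean of 1000 FPKM or more lay 10 members, and 6 of them were lower by 2-fold or more and 3 higher by 2-fold or more in rea1 total RNA. Their median log2 ratio was -1.74, against 1.11 for the other members. Of the background loci at any distance, 1.91% were lower and 26.3% higher by as much. No share was taken for background loci near an abundant one, so the pattern may not be particular to the members. Chromosome 4 held 3 of the 6. Of these, 5094105 to 5094990 was at 109 FPKM in rea1 total and 1268 in wild-type total RNA, 5141270 to 5142076 at 178 and 853 FPKM, and 5594840 to 5595805 at 154 and 722 FPKM. Chromosome 7 held 2, at 18789875 to 18790599 with 94.2 FPKM in rea1 total and 227 in wild-type total RNA, and at 18867732 to 18868453 with 57.5 and 983 FPKM. The nearest very abundant locus was lower in rea1 total RNA beside 8 of the 10 members, the 6 lower ones among them, where its log2 ratio was between -3.20 and -1.97. The other two of the 8 went against it: chromosome 2, 183945415 to 183947706, had a log2 ratio of 2.62 and its neighbour -1.66, and chromosome 6, 156713541 to 156715788, had 0.51 and its neighbour -1.59. These loci were singled out after their values were seen. Whether reads are shared between a member and the abundant locus beside it was not tested.

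The second comparison asks how polysomal RNA differs between the genotypes. Differences were smaller here. Higher by 2-fold or more in rea1 were 61 members (8.29%), against 3.96% of the background loci, and lower by 2-fold or more were 12 (1.63%), against 1.34%. The median log2 ratio was 0.43, with quartiles of 0.13 and 0.69, and the background median was 0.24. With median-of-ratios scaling, 20 members (2.72%) were higher and 23 (3.12%) lower, against 2.09% and 2.43% of the background loci, and the median was 0.17. More members were higher than lower as deposited, but not with median-of-ratios scaling, where both shares were near those of the background loci. The interquartile range was 0.56 in the members and 0.54 in the background loci. When the class was drawn from the mean of the 2 total RNA libraries alone, 67 of 780 loci were higher by 2-fold or more and 11 lower. The lowest ratios were that of the chromosome 8 locus above and that of chromosome 7, 164496101 to 164496944. This locus was at 94.1 FPKM in rea1 polysomal and 368 in wild-type polysomal RNA, and at 20.3 and 106 FPKM in total RNA of rea1 and wild type.

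Set side by side, the 2 fractions gave the same direction for most members, and the signed genotype ratio was mostly the higher in total RNA. As deposited, 77 members (10.5%) were above 0 in total RNA and below 0 in polysomal RNA, and 38 (5.16%) the reverse. The background shares were 18.9% and 6.32%. With median-of-ratios scaling these were 113 (15.4%) and 116 (15.8%), against 16.8% and 20.4%. The genotype ratio was larger in total than in polysomal RNA for 584 of 736 members (79.3%) as deposited, near the 75.5% of the background loci, and for 436 (59.2%) with median-of-ratios scaling, against 47.4%. Higher by 2-fold or more in both fractions were 49 members (6.66%), against 2.45% of the background loci. These are 12.5% of the members higher in total RNA and 80.3% of those higher in polysomal RNA. In the background loci the same overlap shares were 9.34% and 61.9%. Lower by 2-fold or more in both were 10 (1.36%), against 0.475%. These 10 are 38.5% and 83.3% of the 2 lists, against 24.9% and 35.4% in the background loci. Median-of-ratios scaling left 13 higher and 16 lower in both, against 0.747% and 1.02% of the background loci. The 13 were then 6.57% and 65% of their lists, against 11.1% and 35.7% in the background loci. The 16 were 25% and 69.6%, against 18.1% and 42.2%. No member was higher by 2-fold or more in one fraction and lower by as much in the other under either scaling. Such loci were rare in the background too, at 0.0905% with total RNA higher and 0.0339% with it lower as deposited. Higher in total RNA alone were 343 members (46.6%) as deposited, against 23.7% of the background loci. Another 304 (41.3%) differed by less than 2-fold in both fractions, against 69.6%. With median-of-ratios scaling these were 185 (25.1%), against 5.92%, and 460 (62.5%), against 85%. The 2 comparisons share no library. Over the 736 members, which are not independent of each other, the log2 ratios gave r = 0.58 (Pearson) and rho = 0.45 (Spearman), with a rho of 0.40 over the background loci. Whether the fractions of a genotype share a tissue sample is not stated in the labels.

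**Figure D3:**
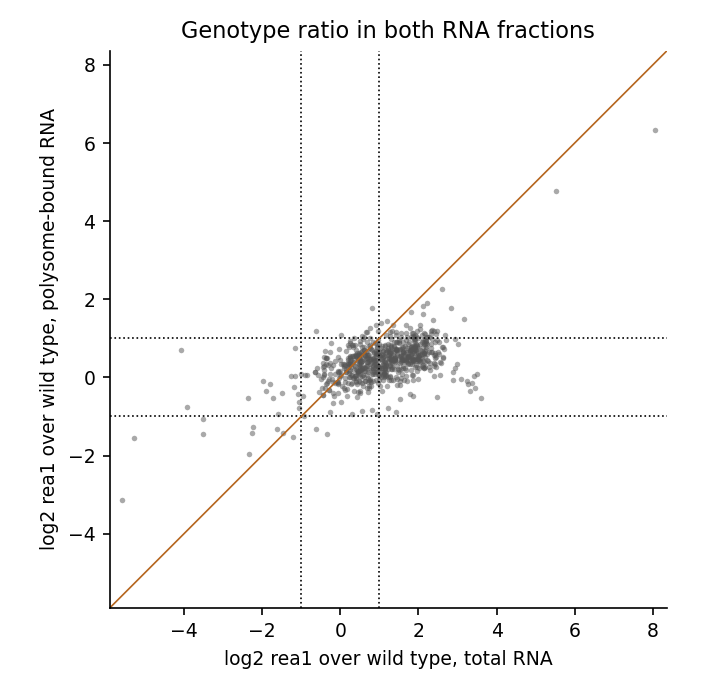
Log2 genotype ratio (rea1 over wild type) in polysomal RNA (vertical axis) against that in total RNA (horizontal axis), 1 point for each of the 736 loci. Dotted lines mark a 2-fold difference and the diagonal marks equal ratios. Most points lie below the diagonal on the right side, 343 of them beyond 2-fold in total RNA and within it in polysomal RNA, and 2 loci stand alone at the upper right. Ratios are drawn as deposited. With median-of-ratios scaling, 185 loci were higher by 2-fold or more in total RNA alone.

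The ratio in polysomal RNA followed that in total RNA only in part. When the members were sorted by their total RNA ratio into 5 classes, the median log2 ratio in polysomal RNA was 0.06, 0.34, 0.42, 0.55 and 0.63 from the lowest to the highest class. The highest class spanned ratios from 1.91 to 8.06 in total RNA, and 27 of its 147 loci were higher by 2-fold or more in polysomal RNA. All 12 members that were lower by 2-fold or more in polysomal RNA fell in the lowest class. These values are as deposited. Background loci were not sorted this way, so the pattern may not be particular to the members. The 2 members whose fractions were most opposed stayed under 2-fold in at least 1 of them. Chromosome 3, 218917243 to 218918947, was at 140 FPKM in rea1 total and 73.3 in wild-type total RNA, but at 75.6 and 145 FPKM in polysomal RNA of rea1 and wild type. Chromosome 8, 162128796 to 162129551, was at 697 FPKM in rea1 total and 259 in wild-type total RNA, and at 150 and 276 FPKM in polysomal RNA of rea1 and wild type.

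The 10 members that were lower in both fractions were shorter than most, with a median length of 952.5 bp against 3115 bp for the 49 that were higher in both. Among background loci too, lower ones were commoner at short length. Of those of 199 to 1837 bp, 6.34% were lower in rea1 total RNA and 4.75% in rea1 polysomal RNA. Of those of 5673 to 191581 bp, 0.636% and 0.236% were. The 10 members included the 3 chromosome 4 loci above. A pair on chromosome 5 had near-equal profiles. Position 159722272 to 159769511 was at 364 FPKM in rea1 total and 1118 in wild-type total RNA and at 96.2 and 244 FPKM in polysomal RNA of rea1 and wild type, with log2 genotype ratios of -1.61 and -1.33. Position 159796628 to 159797566 was at 205 and 567 FPKM in total RNA of rea1 and wild type and at 45.8 and 125 FPKM in their polysomal RNA, with ratios of -1.46 and -1.43. The first spans 47240 bp and the second 939 bp. The pair was named after its values were seen.

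Within each genotype, polysomal RNA was next set against total RNA. This ratio compares a locus's place in 2 libraries and does not give the share of its transcripts on polysomes. In rea1, 20 members (2.72%) were higher by 2-fold or more and 189 (25.7%) lower by 2-fold or more in polysomal RNA, against 2.91% and 20.3% of the background loci. The median log2 ratio was -0.54 and that of the background loci -0.47. With median-of-ratios scaling, 75 members (10.2%) were higher and 65 (8.83%) lower, against 7.19% and 7.73%, and the median was 0.029. The direction of the members' median in rea1 therefore turned with that scaling, as did that of the background loci, at 0.021. In wild type, 30 members (4.08%) were higher and 33 (4.48%) lower, against 4.51% and 6.97% of the background loci, with a median of 0.18 against -0.06. With median-of-ratios scaling, there were 38 higher (5.16%) and 26 lower (3.53%), against 5.75% and 6.41%, and the median was 0.28. The wild-type median was above that of the background loci under both scalings. The counts of loci 2-fold apart in wild type were close to the share of the background loci or below it.

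The ratios of the 2 genotypes were weakly related across the members. Over the 736 members the Spearman rho between the polysome-to-total ratios of rea1 and wild type was 0.15, and over the background loci it was 0.50. Pearson's r over the members was 0.41, and the 2 comparisons share no library. Sorted by the wild-type ratio into 5 classes, the median ratio in rea1 was -0.89 in the lowest class and between -0.54 and -0.42 in the other 4. As deposited, 348 members (47.3%) had a ratio below 0 in rea1 and above 0 in wild type, and 54 (7.34%) the reverse, against 28.4% and 5.99% of the background loci. With median-of-ratios scaling these were 231 (31.4%) and 88 (12.0%), against 15.9% each.

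**Figure D4:**
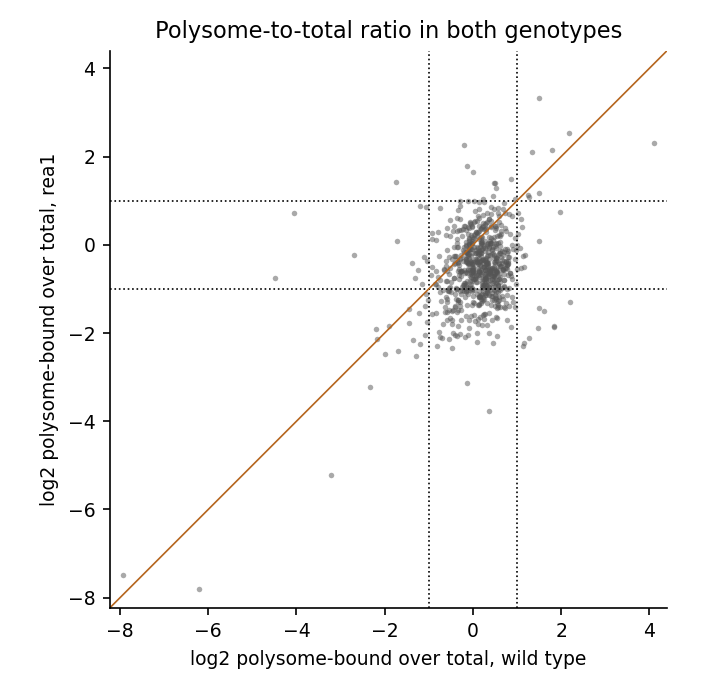
Log2 ratio of polysomal over total RNA in rea1 (vertical axis) against wild type (horizontal axis), 1 point for each of the 736 loci, with dotted lines at 2-fold and a diagonal of equal ratios. The cloud is taller than wide, with an interquartile range of 0.96 in rea1 and 0.64 in wild type, and 2 points at the lower left have polysome values at or near 0.

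Few members were set apart in both genotypes. Higher by 2-fold or more in polysomal RNA of both were 8 (1.09%), against 1.41% of the background loci, and lower by 2-fold or more in both were 20 (2.72%), against 4.94%. With median-of-ratios scaling there were 12 and 13, against 2.32% and 3.24%. The 8 were 40.0% of the members higher in rea1 and 26.7% of those higher in wild type. In the background loci these shares were larger, at 48.5% and 31.4%. The most polysome-enriched in wild type was chromosome 5, 169868724 to 169875813, at 242 FPKM in rea1 polysomal and 48.1 in rea1 total RNA, and at 230 and 12.5 FPKM in wild-type polysomal and total RNA. Chromosome 7, 25919396 to 25927080, was at 388 and 66.1 FPKM in polysomal and total RNA of rea1 and at 365 and 79.9 FPKM in those of wild type. In both loci the polysome values of the genotypes were close, and all polysome values stood above all total values. Within a genotype, a polysome value above the total one follows from how these loci were picked. The highest ratio in rea1, at chromosome 4, 202114056 to 202115986, came with 309 FPKM in rea1 polysomal and 29.7 in rea1 total RNA, and with 444 and 157 FPKM in wild-type polysomal and total RNA.

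At the other end, 2 members were nearly absent from the polysome libraries. Chromosome 2, 225662083 to 225662933, was listed at 0 in polysomal RNA of both genotypes and at 178 FPKM in rea1 total and 243 in wild-type total RNA. Chromosome 8, 167414899 to 167415475, was at 1.12 FPKM in rea1 polysomal RNA, against 475 in rea1 total RNA, and was listed at 0 in wild-type polysomal RNA, against 72.9 in wild-type total RNA. These are the only members listed at 0 in any library, and no fold is given against a 0. That the second counts among the 49 loci higher in both fractions rests on the pseudocount, since its polysomal values are 1.12 and 0 FPKM. Among members above 0 in all libraries the lowest ratio in rea1 was at chromosome 2, 230148124 to 230150596. It was at 20.7 FPKM in rea1 polysomal and 811 in rea1 total RNA, and at 36.6 and 350 FPKM in wild-type polysomal and total RNA. All 3 loci were low in polysomal RNA of both genotypes.

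Last, the polysome-to-total ratio itself was compared between rea1 and wild type. Its change is the genotype ratio in polysomal RNA minus that in total RNA, so it reuses all 4 libraries of the comparisons above. The ratio was lower by 2-fold or more in rea1 for 254 members (34.5%), against 15.5% of the background loci, and higher by 2-fold or more for 20 (2.72%), against 2.05%. The median change was -0.69, and that of the background loci -0.37. With median-of-ratios scaling, the ratio was lower for 108 (14.7%) and higher for 55 (7.47%), against 6.35% and 5.02%, with medians of -0.22 and 0.04. The members' median was below that of the background loci under both scalings. By level, the median change as deposited was -0.54 in members of 100 to 150 and of 150 to 200 mean FPKM, -0.91 in those of 200 to 300 and -0.89 in those of 300 to 500. With median-of-ratios scaling the medians were -0.07, -0.07, -0.44 and -0.42 in the same order. Outside the range, loci of 50 to 100 mean FPKM had a median of -0.45 as deposited and 0.02 with median-of-ratios scaling. Those of 500 to 1000 had -0.80 and -0.33. As deposited, 18.8% of the former and 33.8% of the latter were lower by 2-fold or more. The members' 34.5% was thus near the share in the band above them. These bands rest on a mean that holds all values of the change.

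The loci of extreme change differed mainly in total RNA. Chromosome 4, 156508360 to 156509901, was at 38.6 FPKM in rea1 polysomal and 538 in rea1 total RNA, and at 56.2 and 43.7 FPKM in wild-type polysomal and total RNA, a change of -4.13. Chromosome 2, 14631515 to 14632312, was at 99.1 and 363 FPKM in polysomal and total RNA of rea1 and at 119 and 32.6 FPKM in those of wild type, a change of -3.71. In both, only rea1 total RNA was high. The highest change was at chromosome 7, 18867732 to 18868453, one of the loci beside an abundant one, at 95.3 and 57.5 FPKM in polysomal and total RNA of rea1 and 58.0 and 983 FPKM in those of wild type (4.78). The chromosome 1 locus at 162047479 followed with 3.74. In these 2, only wild-type total RNA was high.

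Length, which the rule did not use, went with these ratios. Length here is that of the span on the chromosome, which need not be that of the transcript. The members were 199 to 191581 bp long with a median of 3149 bp, shorter than the 3989 bp of the background loci and between the 3830.5 bp of loci of 50 to 100 mean FPKM and the 2438 bp of loci of 500 to 1000. In 5 classes of length, from short to long, the median genotype ratio in total RNA was 1.26, 1.69, 1.07, 0.96 and 0.64. All values by length class are as deposited. The share higher by 2-fold or more was 59.5%, 75.5%, 51.7%, 45.6% and 34.0%, against 29.7%, 30.1%, 25.8%, 25.4% and 23.7% of the background loci of the same lengths. In polysomal RNA the medians were 0.25, 0.49, 0.42, 0.46 and 0.46. The median polysome-to-total ratio in rea1 was -0.88, -0.70, -0.58, -0.33 and -0.25, and in wild type 0.16, 0.33, 0.17, 0.18 and -0.01. Length thus went with the total RNA ratio and with the polysome-to-total ratio of rea1, and much less with the other 2. In the background loci of the same lengths the total RNA medians were 0.57, 0.63, 0.63, 0.62 and 0.64, but the shares beyond 2-fold were smaller in the longest class than in the shortest there too. The share lower in rea1 polysomal than total RNA was 43.2%, 35.4%, 23.8%, 13.6% and 12.2% of the members, against 29.8%, 23.0%, 18.4%, 16.4% and 17.5% of the background loci. The share with a lower polysome-to-total ratio in rea1 than in wild type was 48.6%, 57.8%, 33.3%, 18.4% and 14.3% of the members, against 24.5%, 20.7%, 15.3%, 12.8% and 10.5%.

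**Figure D5:**
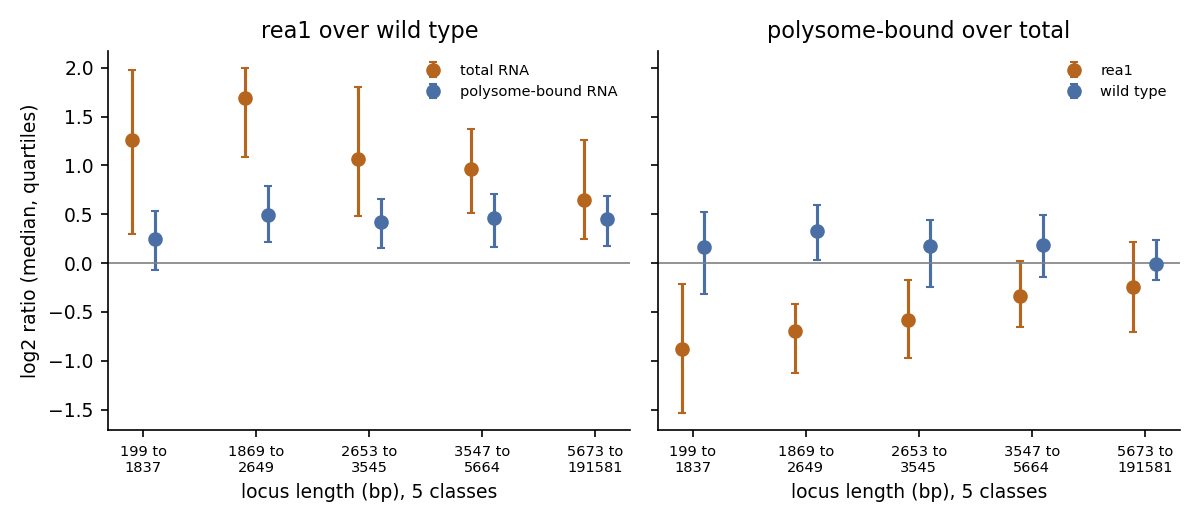
Median log2 ratio of the members in 5 classes of locus length (147 or 148 loci each), with bars from the lower to the upper quartile over loci. The left panel shows rea1 over wild type in total and polysomal RNA, the right panel polysomal over total RNA in rea1 and wild type. The total RNA median is highest, at 1.69, in the class of 1869 to 2649 bp and lowest, at 0.64, in the longest, while the polysomal medians lie between 0.25 and 0.49.

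Shorter members were also the more abundant, with a Spearman rho of -0.23 between mean FPKM and length over the 736 loci, so both were examined jointly. Among members of 100 to 200 mean FPKM, the median total RNA ratio was 1.26 for the 182 loci shorter than the median length and 0.73 for the 257 longer ones. Among those of 200 to 500, it was 1.69 for 186 shorter and 1.05 for 111 longer loci. With median-of-ratios scaling, members of 100 to 200 had medians of 0.53 if shorter and -0.003 if longer. Members of 200 to 500 had 0.95 and 0.31 in the same order. As deposited, the median change of the polysomal-to-total ratio was -0.90 for shorter and -0.37 for longer loci in the lower band. It was -1.09 for shorter and -0.47 for longer loci in the upper. With level taken from the 2 polysome libraries, the total RNA medians were 1.30 for shorter and 0.73 for longer loci of 100 to 200, and 1.56 for shorter and 0.996 for longer loci of 200 to 500. Shorter loci had the larger median in both bands under either banding.

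The members lay on all 10 chromosomes, with 112 on chromosome 1, 43 on chromosome 10 and 2 on scaffolds. They were 3.18% of the background loci on chromosome 3 and 5.22% on chromosome 6, the extremes among chromosomes. The median genotype ratio in total RNA was between 0.91 on chromosome 1 and 1.30 on chromosome 4. No span in the files overlaps another, but 39 members share their span with at least 1 further entry. These 44 further entries had a median mean of 5.43 FPKM and at most 59.0 FPKM, so in each such span 1 entry alone fell into the range. Of members at least 20 kb long there were 16, and of members under 600 bp 17. The longest, chromosome 3, 23906023 to 24097603, was at 147 FPKM in rea1 total and 175 in wild-type total RNA and at 389 and 248 FPKM in polysomal RNA of rea1 and wild type.

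Within 10 kb of each other lay 13 pairs of members. The genotype ratio in total RNA had the same sign in 11 of them, in polysomal RNA in 9, and the median absolute difference of the total RNA ratio within a pair was 1.06 (log2). Of all members, 87.8% had a ratio above 0 in total RNA and 82.5% in polysomal RNA as deposited. A shared sign is therefore common in any pair of members. The pair of highest sum was alike. Chromosome 6, 38116490 to 38117563, was at 356 FPKM in rea1 total and 180 in wild-type total RNA and at 778 and 432 FPKM in polysomal RNA of rea1 and wild type. Its neighbour at 38119467 to 38119890 was at 150.5 and 88.2 FPKM in total RNA and at 311 and 173 FPKM in polysomal RNA of rea1 and wild type. The next pair differed. Chromosome 2, 217276427 to 217278951, was at 464 FPKM in rea1 total and 349 in wild-type total RNA, and its neighbour at 217279639 to 217281219 at 513 and 132 FPKM, log2 ratios of 0.41 and 1.95.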

How the data were processed

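The authors deposited 1 file per library with 1 FPKM value per locus, per the file headers. The submitters' processing notes name B73 RefGen_v3 as genome build and list the aligner Bowtie 0.12.2. What program made the FPKM values, from which annotation and denominator and how many reads, and what became of the triplicates in the design text, is not given in the sources used here. Depth is therefore unknown. Starts were read as counted from 0, since 20 loci have a listed start of 0, and are printed counted from 1.

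Ratios were computed as log2(FPKM + 1), which understates differences of low loci. The background was every locus whose mean reached 1 FPKM. Loci apart by 2-fold or more were counted in 5 comparisons, without a test. Median-of-ratios scaling used loci above 0 in all 4 libraries, with factors of 1.46 for rea1 total, 0.876 for wild-type total, 0.981 for rea1 polysomal and 0.817 for wild-type polysomal RNA. The alternatives were pseudocounts of 0.1 and 5, other scalings, filters and definitions of the class.

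The members, limits and lists were chosen with earlier results of these data known. Named loci are the 2 highest and 2 lowest per comparison among members above 0 in all libraries with a span of their own. The rule also took the 2 highest and 2 lowest in both fractions and in both genotypes, the 2 most opposed, the 2 most even, those at each limit, those listed at 0 and the 2 most abundant pairs within 10 kb. Other loci, such as the longest, were chosen after their values were seen. Calculations ran in Python 3.11.15 (scipy 1.17.1, pandas 2.3.3, numpy 2.4.6), plots were drawn with matplotlib 3.10.9, and the counting steps were tested on simulated data. No sequences are shown.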

Additional observations from a re-analysis of the deposited data

Results flagged for a closer look

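In 10 members the polysome-to-total ratio was up by 2-fold or more in one genotype and down by 2-fold or more in the other. The ratio was lower in rea1 in 9 (1.22%) and higher in 1 (0.136%), against 0.396% and 0.0566% of the background loci. With median-of-ratios scaling there were 6 and 3, against 0.215% and 0.119%. With 1 library behind each value these differences in direction were not tested. The loci were named after their values were seen.

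In 9 of them the log2 ratio was negative in rea1 and positive in wild type. It was -2.23 in rea1 and 1.16 in wild type at chromosome 7, 119991341 to 119992231, and -1.44 and 1.5 at chromosome 4, 63118802 to 63120057. It was -2.12 and 1.28 at chromosome 9, 17731053 to 17732110, and -2.29 and 1.13 at chromosome 10, 134829898 to 134830543. In each of these rea1 total RNA was high and wild-type total RNA low, with polysome values close to each other. At chromosome 3, 181560025 to 181562971, whose span holds another entry, the ratio was -1.89 in rea1 and 1.47 in wild type, and at chromosome 1, 208340474 to 208341797, it was -1.49 and 1.62. On chromosome 2 it was -1.84 and 1.83 at 14732307 to 14733163, -1.86 and 1.84 at 14631515 to 14632312, and -1.30 and 2.20 at 55260327 to 55261020.

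The 9 loci had one profile in common. They were picked for a polysome-to-total ratio down by 2-fold or more in rea1 and up in wild type, so part of that profile follows from the choice. They spanned 214 to 537 FPKM in rea1 total RNA and 24.9 to 51.8 FPKM in wild-type total RNA, without overlap, but 53.6 to 158 FPKM in rea1 polysomal and 59.8 to 161 FPKM in wild-type polysomal RNA. Their median length was 891 bp. The first 2 of those on chromosome 2 were nearly the same in every library. The one at 14732307 was at 402 FPKM in rea1 total, 39.3 for wild-type total, 112 in rea1 polysomal and 142 in wild-type polysomal RNA. The one at 14631515 was at 363, 32.6, 99.1 and 119 FPKM in the same order.

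The remaining locus went the other way. Chromosome 1, 276228712 to 276230768, had a ratio of 1.44 in rea1 and -1.75 in wild type, with 57.2 FPKM in rea1 polysomal and 20.5 in rea1 total RNA and 97.0 and 328 FPKM in wild-type polysomal and total RNA. With median-of-ratios scaling 3 of the 9 no longer reached 2-fold in rea1: chromosome 4 at -0.87, chromosome 1, 208340474, at -0.92, and chromosome 2, 55260327, at -0.73.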

How the results depend on the processing

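Scaling moved the counts and the other choices did so rarely. In total RNA, members higher in rea1 by 2-fold or more numbered 392 as deposited, 198 with median-of-ratios, 204 with trimmed mean scaling and 143 at equal sums without the 50 most abundant loci, and lower ones 26, 64, 62 and 80. Of the background loci, 26.3%, 6.74%, 7.11% and 5.07% were higher there and 1.91%, 5.65%, 5.45% and 8.06% lower. In the same order of scalings, polysomal RNA gave 61, 20, 21 and 14 members higher and 12, 23, 22 and 26 lower. The background shares were 3.96%, 2.09%, 2.26% and 1.62% higher and 1.34%, 2.43%, 2.18% and 3.07% lower. Polysomal against total RNA in rea1 gave 20, 75, 75 and 64 members higher and 189, 65, 65 and 74 lower. Background shares there were 2.91%, 7.19%, 7.24% and 6.36% higher and 20.3%, 7.73%, 7.81% and 8.26% lower. The change of the ratio gave 20, 55, 55 and 65 members higher and 254, 108, 103 and 89 lower. Its background shares were 2.05%, 5.02%, 5.23% and 5.95% higher and 15.5%, 6.35%, 6.23% and 5.58% lower. Higher in both fractions were 49, 13, 14 and 10, lower in both 10, 16, 15 and 19, and lower in polysomal RNA of both genotypes 20, 13, 13 and 16. For these overlaps no background share was taken with trimmed mean or equal-sum scaling. The shifts in all these counts follow from the scaling factors. The median polysome-to-total ratio in rea1, -0.54 as deposited, turned to 0.029 with median-of-ratios and 0.028 with trimmed mean scaling. At equal sums it was -0.028. The background median moved alike, at -0.47, 0.021, 0.020 and -0.026 in the order above. By the median of the 4 libraries the class held 679 loci, with 20 lower in wild-type polysomal RNA (33 as reported) and 12 lower in both genotypes. By the geometric mean it held 684, with 12 lower in both genotypes; the cause was not tested. Of 162 counts under the alternatives, 128 stayed within 1.5 times. These include the counts under other filters on the background loci, which leave the members as they are and so could not move. Pseudocounts, left-out loci at 0 and left-out shared spans moved no member count by more. The background does move with the pseudocount: higher in rea1 total RNA were 34.0% of background loci at 0.1 and 13.0% at 5. At 0.1 the members fall below or near it for lower in rea1 polysomal than total RNA (190 members, against 27.2%), lower in rea1 polysomal than wild-type polysomal RNA (12, against 2.87%) and higher there (62, against 7.83%). They also fall below it for a polysome-to-total ratio higher in rea1 than in wild type (20, against 3.55%). No paired analysis was possible because each group holds 1 library, and no library could be left out. Depth is not given, so counting error is unknown.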
